A study of Mus musculus with 6 samples.

Results

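The endosomal Toll-like receptors Tlr3, Tlr7, Tlr8, Tlr9 and Tlr13, with their chaperone Unc93b1, were taken from a gene count table of mouse bone marrow-derived macrophages by gene symbol. All 6 symbols were found, each in a single row, among 55335 rows, and all 6 passed the filter on low counts that left 13901 genes for testing. Bone marrow-derived macrophages are primary cells matured from marrow in culture, here with M-CSF. The macrophages of 3 libraries received acinar cell conditioned medium (PAC-CM, from injured pancreatic cells) on day 5 together with 400 µM kinsenoside, a glycoside found in orchids (PAC-CM-KD in the labels). Those of the other 3 libraries received PAC-CM without kinsenoside. The comparison concerns the effect of kinsenoside on the response to this medium, and all 6 libraries carry the medium, so none shows untreated macrophages. Mouse strain, age and sex, and how the acinar cells were injured, were not given in the sources used here. Since the origin of the replicates is unstated, each p-value reflects only the spread among these libraries, which may be technical.

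These receptors sense nucleic acids inside endosomes and lysosomes, where material taken up by phagocytosis or endocytosis is broken down. Unc93b1, a membrane protein of the endoplasmic reticulum, binds the newly made receptors and escorts them to these compartments. There, proteases cut the ectodomains of several of them before they signal. Tlr3 binds double-stranded RNA and signals through the adaptor TRIF (Ticam1). Tlr7, Tlr8 and Tlr13 sense RNA and Tlr9 senses unmethylated CpG DNA, all through MyD88. Macrophages use these receptors to respond to microbes, and also to nucleic acids of dying cells.

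Unc93b1 and Tlr13 were the most abundant of the 6 transcripts and differed little between kinsenoside and PAC-CM libraries. Tlr3 was the member with the clearest difference: its level with kinsenoside was 0.690-fold that in PAC-CM (95% interval 0.578 to 0.823, n = 3 each), with no overlap between the groups. Even so, Tlr3 missed the threshold of the main test, in which none of the 6 members passed. Tlr7 counts fell into 2 levels that did not follow the treatment, so its fold change is poorly determined.

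Total counts were between 41125059 and 47461702 per library. Macrophage identity was checked with 10 markers (11 identifiers, since Itgam has a pair of rows), all of them above 3 counts in every library. Their summed level was 20909 to 23221 CPM (counts per 1000000 counts of the library) in kinsenoside libraries and 18984 to 20846 CPM in PAC-CM libraries. Markers of other cells were lower in sum. The 7 markers of plasmacytoid dendritic cells summed to 1.37 to 1.65 CPM with kinsenoside and 1.28 to 1.70 CPM in PAC-CM, with Spib at 0 in every library. The 7 markers of conventional dendritic cells summed to 7.10 to 11.8 CPM with kinsenoside and 7.37 to 10.5 CPM in PAC-CM, most of it from Xcr1, and Flt3 had 3 counts or fewer in every library. The 8 markers of neutrophils and their precursors summed to 33.3 to 42.8 CPM with kinsenoside and 31.0 to 40.0 CPM in PAC-CM, with Ly6g, Mpo and Elane at 3 counts or fewer. The 5 endothelial markers summed to 54.8 to 98.8 CPM with kinsenoside and 55.2 to 75.0 CPM in PAC-CM, with Emcn and Cldn5 at 0. The neutrophil and endothelial sums are of the order of the Tlr3 and Tlr9 levels in CPM, and the dendritic cell sums are below both. Most of the neutrophil sum came from S100a8 (means of 36.5 CPM with kinsenoside and 34.7 CPM in PAC-CM). Kdr gave most of the endothelial sum (67.4 and 58.1 CPM). The part of these cells in the Tlr3 and Tlr9 levels was not tested. The 9 acinar cell markers summed to at most 5.87 CPM with kinsenoside and to 5.94 to 6.66 CPM in PAC-CM. Ptf1a, the acinar transcription factor, was at 0 in every library. The macrophage and acinar sums thus did not overlap between the groups, but both gaps were narrow (20909 against 20846 CPM, and 5.87 against 5.94 CPM). Much of the macrophage sum came from Lyz2. That gene alone had 12047 to 15323 CPM with kinsenoside and 11052 to 12771 CPM in PAC-CM, which overlap. The part of these sums in the results was not tested.

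The 6 transcripts spanned a wide range when compared per kilobase of annotated exons. With kinsenoside, the levels averaged 167 ± 6.62 CPM per kilobase for Unc93b1, 98.7 ± 7.08 for Tlr13 and 45.0 ± 5.50 for Tlr8 (SD, n = 3). Tlr7 followed at 39.5 ± 20.1, Tlr3 at 11.7 ± 1.82 and Tlr9 at 5.15 ± 0.257 CPM per kilobase. In PAC-CM the same levels were 171 ± 7.44 for Unc93b1, 99.5 ± 8.74 for Tlr13 and 55.6 ± 23.2 for Tlr7. Tlr8 was at 53.0 ± 6.77, Tlr3 at 17.5 ± 0.789 and Tlr9 at 5.81 ± 0.193 CPM per kilobase (SD, n = 3). Tlr7 and Tlr8 changed places between the groups, but their ranges overlapped in both. All other neighbours in the order were separated in all 3 libraries of each group. Among all tested genes ranked by mean level per kilobase, Unc93b1 was 292nd, Tlr13 479th, Tlr8 938th, Tlr7 969th, Tlr3 2649th and Tlr9 5206th.

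**Figure D1:**
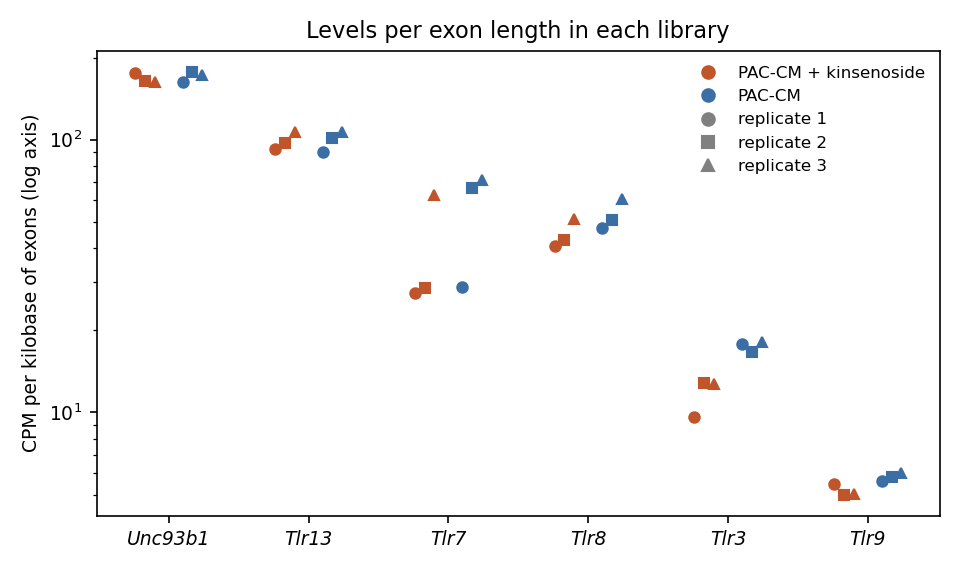
Level of each transcript in CPM per kilobase of exons, on a log axis, in each of the 3 PAC-CM + kinsenoside libraries (orange) and the 3 PAC-CM libraries (blue), with replicates as circles, squares and triangles. Unc93b1 (means of 167 and 171) and Tlr13 (98.7 and 99.5) lie on top in both groups and Tlr9 (5.15 and 5.81) lies lowest, while the Tlr7 points form 2 levels in each group.

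Unc93b1 (ENSMUSG00000036908, chromosome 19, 3935186 to 3949340, plus strand, GRCm38), the chaperone, had 530, 498 and 493 CPM in kinsenoside replicates 1, 2 and 3, against 494, 537 and 525 CPM in PAC-CM replicates 1, 2 and 3. The groups overlapped throughout. The log2 fold change was 0.01, with a 95% interval of -0.13 to 0.16 and an adjusted p of 0.959 (edgeR's quasi-likelihood test, Benjamini-Hochberg adjustment over all tested genes). On the linear scale this interval runs from 0.912-fold to 1.11-fold.

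Tlr3 (ENSMUSG00000031639, chromosome 8, 45395665 to 45411080, minus strand), the receptor for double-stranded RNA, had 50.1, 66.8 and 66.2 CPM in kinsenoside replicates 1, 2 and 3. In PAC-CM replicates 1, 2 and 3 it had 92.9, 86.6 and 94.3 CPM. Every kinsenoside library lay below every PAC-CM library, and kinsenoside replicate 1 was the lowest of all. The raw counts behind these values were 2177, 2818 and 2724 with kinsenoside, against 4001, 4109 and 4158 in PAC-CM. The mean was 61.0 ± 9.46 CPM with kinsenoside and 91.3 ± 4.11 CPM in PAC-CM (SD, n = 3 each). The log2 fold change was -0.54 (SE 0.111, 95% interval -0.79 to -0.28), and edgeR gave an unadjusted p of 0.00114, the 179th smallest of 13901, and an adjusted p of 0.0882. DESeq2, with its Wald test, gave an adjusted p of 0.00306 for Tlr3. Over 15 alternatives the adjusted p ranged from 0.00306 to 0.269, with DESeq2 alone under 0.05, and the log2 fold change ranged from -0.60 to -0.41. Fewer cells expressing a gene and less RNA per cell cannot be told apart in such bulk samples. The antisense model Gm45542 shares 381 bases of exon with Tlr3, and with at most 3 counts in any library it holds few reads.

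Ratios of Tlr3 to another member within a library do not depend on the scaling of libraries. The ratio of Tlr3 to Unc93b1 per kilobase averaged 0.0704 ± 0.0133 in kinsenoside libraries and 0.103 ± 0.00807 in PAC-CM libraries (SD, n = 3 each). Its ratio to Tlr13 was 0.104, 0.132 and 0.119 with kinsenoside, against 0.199, 0.164 and 0.169 in PAC-CM. Neither of these ratios overlapped between the groups. Nor did the ratio to Tlr9, at 1.77, 2.56 and 2.54 with kinsenoside, against 3.17, 2.86 and 3.01 in PAC-CM. The ratio to Tlr8 was 0.235, 0.300 and 0.248 with kinsenoside, against 0.375, 0.328 and 0.299 in PAC-CM, and overlapped narrowly. The ratio to Tlr7 was 0.352, 0.449 and 0.203 with kinsenoside, against 0.617, 0.249 and 0.255 in PAC-CM, and also overlapped. All these ratios share the same Tlr3 values, so they are not separate evidence of a lower Tlr3. No test was made of them.

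The promoter windows of Tlr3 and Tlr13 are shown because Tlr3 had the smallest p of the members and Tlr13 was the most abundant receptor. Each holds 250 bases before and 50 bases after the RefSeq gene start (GRCm38.p6, 5′ to 3′ on the gene's strand; RefSeq lists windows for 4 of the members: Tlr3, Tlr8, Tlr9 and Tlr13). The windows are chr8:45410331-45410630 (minus strand) for Tlr3 and chrX:106143025-106143324 (plus strand) for Tlr13. The Tlr3 window lies wholly inside the GENCODE gene (45395665 to 45411080), so RefSeq and GENCODE place the start of Tlr3 differently. Capitals mark matches to any of 6 motifs searched on both strands.
Tlr3: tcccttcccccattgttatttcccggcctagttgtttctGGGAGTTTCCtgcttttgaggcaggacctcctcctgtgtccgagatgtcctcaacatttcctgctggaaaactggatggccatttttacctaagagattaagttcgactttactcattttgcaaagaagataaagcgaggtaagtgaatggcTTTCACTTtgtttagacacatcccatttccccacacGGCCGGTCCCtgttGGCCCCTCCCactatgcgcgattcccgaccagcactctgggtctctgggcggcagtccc
Tlr13: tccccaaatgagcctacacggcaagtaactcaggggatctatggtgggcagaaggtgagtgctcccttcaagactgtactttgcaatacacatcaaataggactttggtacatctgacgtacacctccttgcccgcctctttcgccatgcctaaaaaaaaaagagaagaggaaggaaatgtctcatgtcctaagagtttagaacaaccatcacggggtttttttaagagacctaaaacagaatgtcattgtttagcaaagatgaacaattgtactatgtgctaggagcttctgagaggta

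The Tlr3 window held 3 matches to the NF-kB pattern (GGGA, 4 arbitrary bases, CC), at window position 40 on the printed strand and at positions 228 and 242 on the reverse strand, where the capitals show the reverse complement of the pattern, and 1 to the core AANNGAAA bound by interferon regulatory factors, at position 192 on the reverse strand. The NF-kB pattern is present in 20.7% of 32851 promoter windows of this length, and the interferon regulatory factor core, added after the Tlr3 window had been read, in 23.9%. The stricter interferon-stimulated response element core (GAAA, 2 arbitrary bases, GAAA), which contains that core and is present in 3.44% of windows, did not match. Neither did the PU.1 pattern GAGGAAGT (3.20% of windows), the AP-1 pattern TGANTCA (7.81%) or the cyclic AMP response element TGACGTCA (1.79%). The Tlr13 window and that of Tlr8 matched none of the 6. Tlr9 matched AP-1 at position 193 and PU.1 at position 261 on the reverse strand. These matches are letters in a window and not binding sites.

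Tlr7 (ENSMUSG00000044583, chromosome X, 167304929 to 167330558, minus strand), a receptor for single-stranded RNA, had 112, 117 and 256 CPM in kinsenoside replicates 1, 2 and 3. In PAC-CM replicates 1, 2 and 3 it had 118, 272 and 290 CPM. Kinsenoside replicates 1 and 2 and PAC-CM replicate 1 thus lay close together, with the other 3 libraries at least 2.17-fold higher, and each level held libraries of both groups. The log2 fold change was -0.45 with an SE of 0.528, a 95% interval of -1.84 to 0.94 and an adjusted p of 0.762 (edgeR). This interval is the widest of the 6, from 0.280-fold to 1.92-fold, so neither a fall nor a rise within it can be excluded with these libraries.

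Such a split is rare in the table. Among 9744 genes with at least 200 counts in some library, 41 had counts in 2 levels at least 2-fold apart, with values within 1.5-fold on either side and at least 2 libraries on each side, a definition set after seeing Tlr7. The split followed the treatment in 2 of the 41. Among the 41, the same libraries were high for 1 other gene, Trim21, a cytosolic antibody receptor and ubiquitin ligase. Below this definition, Tlr8 and Tlr13 were also highest in these libraries, with smaller gaps. Tlr8 had at least 182 CPM in them and at most 171 CPM in the others, and Tlr13 at least 437 and at most 417 CPM. Tlr3, Tlr9 and Unc93b1 did not rank the libraries this way. No annotated gene overlaps Tlr7, and its nearest neighbours are Prps2, 15764 bases away, and Tlr8, 40600 bases away. GENCODE lists 6 Tlr7 transcripts of 261 to 3897 bases, and how the deposited counts treat them was not given in the sources used here.

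Tlr8 (ENSMUSG00000040522, chromosome X, 167242696 to 167264329, minus strand), the neighbour and close relative of Tlr7, had 147, 153 and 184 CPM in kinsenoside replicates 1, 2 and 3. PAC-CM replicates 1, 2 and 3 had 171, 182 and 217 CPM. The groups overlapped, since kinsenoside replicate 3 lay above PAC-CM replicates 1 and 2. The means were 161 ± 19.7 CPM with kinsenoside and 190 ± 24.3 CPM in PAC-CM (SD, n = 3 each), and the log2 fold change was -0.19 (SE 0.117, 95% interval -0.46 to 0.08, edgeR adjusted p = 0.494). Human TLR8 senses breakdown products of RNA, while the ligand of the mouse protein is less clear.

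Tlr13 (ENSMUSG00000033777, chromosome X, 106143204 to 106160493, plus strand), a mouse receptor for bacterial ribosomal RNA that humans lack, was the most abundant receptor of the 5. It had 399, 417 and 458 CPM in kinsenoside replicates 1, 2 and 3, against 387, 437 and 460 CPM in PAC-CM replicates 1, 2 and 3. The groups covered nearly the same range. Its log2 fold change was 0.03 (95% interval -0.16 to 0.23, edgeR adjusted p = 0.905), or 0.893-fold to 1.17-fold.

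Tlr9 (ENSMUSG00000045322, chromosome 9, 106222598 to 106226883, plus strand), the CpG DNA receptor, was the least abundant member. It had 18.9, 17.4 and 17.4 CPM in kinsenoside replicates 1, 2 and 3, against 19.6, 20.2 and 20.9 CPM in PAC-CM replicates 1, 2 and 3. By library totals the groups did not overlap, but the gap between kinsenoside replicate 1 and PAC-CM replicate 1 was narrow. TMM scaling, which the edgeR test used, has factors of 0.9851 and 1.0186 for these libraries and would close this gap. The log2 fold change was -0.13 (SE 0.0804, 95% interval -0.31 to 0.05) and the edgeR adjusted p was 0.499.

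**Figure D2:**
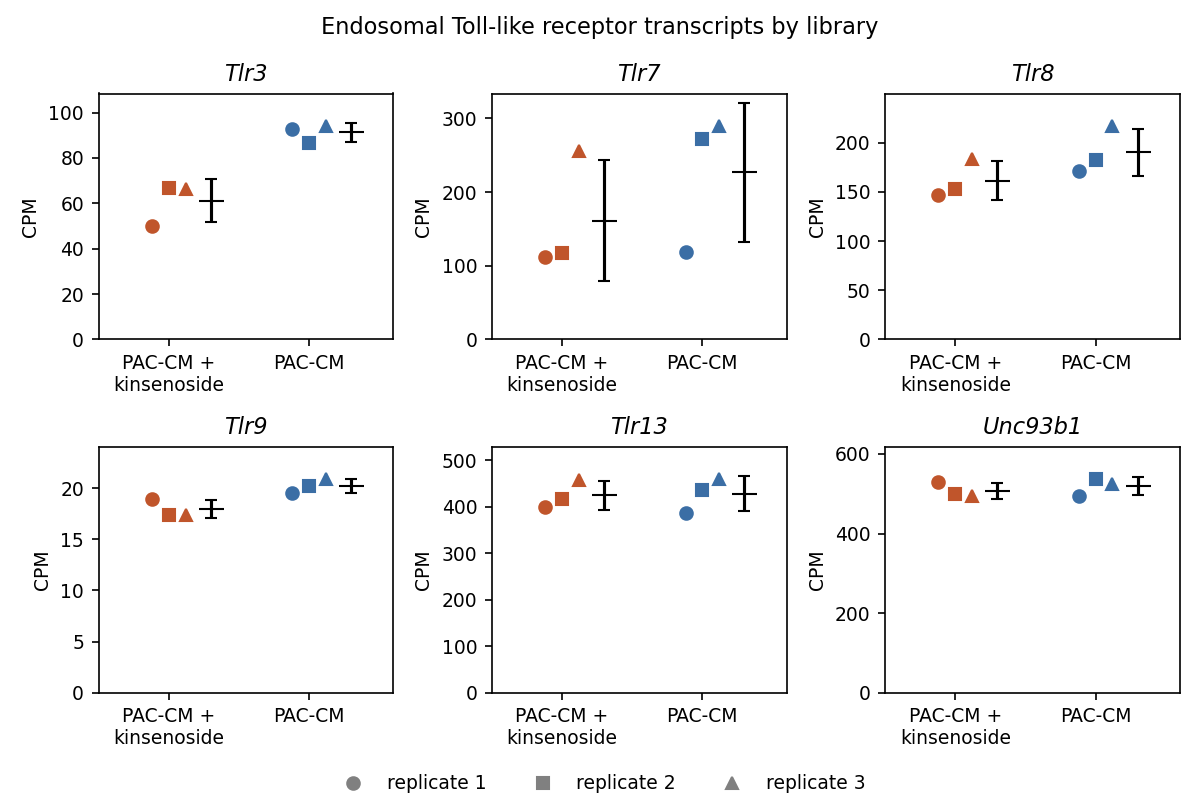
CPM of the 6 transcripts in each library, with PAC-CM + kinsenoside in orange on the left and PAC-CM in blue on the right of each panel; bars are mean ± SD of 3 libraries. Tlr3 libraries lie at 50.1 to 66.8 with kinsenoside, all below the PAC-CM libraries at 86.6 to 94.3, and Tlr7 splits into low and high libraries in both groups.

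In edgeR, 0 of the 6 members passed an adjusted p of 0.05, against a background of 0.511% of tested genes in either direction (0.209% higher and 0.302% lower with kinsenoside). At an unadjusted p under 0.05 there was 1 member, Tlr3, where 14.9% of all tested genes met this, 8.19% with a lower level. DESeq2 called 1 member, again Tlr3, with a background of 3.52% (1.89% lower), and limma-voom called 0. Groups that did not overlap, with kinsenoside lower, were seen for 2 members, Tlr3 and Tlr9, against 15.7% of tested genes in this direction, 6.86% in the other and 22.5% in both. The share of members is above this background, but with 6 genes a count of 2 is small. Overlap was judged on CPM from library totals, and the Tlr9 gap would close with the TMM scaling of the edgeR test. Library totals also shift all genes downward, to a median log2 fold change of -0.05. Of the 6 estimates 4 lay below 0, with a median log2 fold change of -0.16, while over all tested genes 51.1% lay below 0 with a median of -0.01. This count depended on scaling, with 5 of the 6 below 0 for upper quartile scaling and all 6 for library totals.

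The mix of receptors was described by each receptor's share of the per-kilobase level summed over the 5. Tlr13 made up 52.6%, 52.1% and 44.7% of this sum in kinsenoside replicates 1, 2 and 3, against 47.3%, 42.1% and 40.7% in PAC-CM replicates 1, 2 and 3. Tlr3 made up 5.47%, 6.89% and 5.34% with kinsenoside, against 9.40%, 6.89% and 6.89% in PAC-CM. Because Tlr7 carries its 2 levels into every one of these shares, they were also taken over the 4 other receptors, a choice made after seeing the data. The Tlr3 share was then 6.48%, 8.15% and 7.25% with kinsenoside, against 11.1%, 9.52% and 9.44% in PAC-CM, and the Tlr13 share was 62.3%, 61.5% and 60.7% with kinsenoside, against 55.8%, 58.1% and 55.8% in PAC-CM. Without Tlr7, neither of these shares overlapped between the groups, while those of Tlr8 and Tlr9 did. With Tlr7 in the sum, the Tlr3 and Tlr13 shares both overlapped, so the separation rests on that later choice. Shares of a sum also depend on each other, so a lower Tlr3 or Tlr8 share raises that of Tlr13. The sum of the 4 receptors per unit of Unc93b1 was 0.850, 0.957 and 1.08 with kinsenoside and 0.988, 0.985 and 1.11 in PAC-CM, which overlap.

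The genes whose profile over the 6 libraries was most like that of a member were taken as the pair with the highest Pearson correlation of log2 CPM among the 9155 genes that averaged 5 CPM or more. For Tlr3 these were Sh3kbp1, an adaptor of receptor endocytosis (r = 0.998), and the integrin subunit Itga4 (r = 0.997). Tlr7 was followed by Trim21 (r = 0.998) and the phosphatase gene Ptpn1 (r = 0.990), and Tlr8 by Dock2 (r = 0.992), which drives leukocyte migration, and the annexin gene Anxa1 (r = 0.988). Tlr9 was closest to Gm38394 and Pdcd11 (r = 0.987 and 0.986), Tlr13 to Rps27l and Tmem209 (r = 0.997 and 0.989), and Unc93b1 to the complement C5a receptor gene C5ar1 and Commd10 (r = 0.996 and 0.981). These are the highest of 9155 correlations over 6 libraries, chosen for their size, and are given as a description. None of these 12 genes passed in edgeR; Itga4 came closest, with a log2 fold change of -0.74 and an adjusted p of 0.0670.

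The other Toll-like receptors gave a comparison within the family. Of 7 listed, 5 were tested, and 0 passed in edgeR or limma-voom, 3 had an unadjusted p under 0.05 and DESeq2 called 2 lower. Over all tested genes 14.9% had such an unadjusted p in edgeR and DESeq2 called 1.89% lower. Tlr2, which senses bacterial lipoproteins with Tlr1 or Tlr6, had 180, 211 and 162 CPM in kinsenoside replicates 1, 2 and 3, against 288, 231 and 249 CPM in PAC-CM replicates 1, 2 and 3. Its log2 fold change was -0.43 (SE 0.112, edgeR adjusted p = 0.140). Tlr1 had 84.5, 90.2 and 95.3 CPM with kinsenoside, against 112, 119 and 132 CPM in PAC-CM, a log2 fold change of -0.38 (SE 0.0823, edgeR adjusted p = 0.0927). Neither gene overlapped between the groups, as was the case for Tlr3, whose log2 fold change of -0.54 lay within the 95% intervals of both. Over all tested genes 15.7% did not overlap with kinsenoside lower, judged on library totals, which shift all genes downward. The other gene with an unadjusted p under 0.05, Tlr4, went the other way, with a log2 fold change of 2.10 (edgeR adjusted p = 0.297). It had 107, 20.7 and 114 CPM in kinsenoside replicates 1, 2 and 3, against 17.6, 17.6 and 23.2 CPM in PAC-CM. The groups thus overlapped. The log2 fold change was -0.05 for Tlr6, and -0.45 for Tlr11 with only 17 to 44 counts per library. The median of the 5 was -0.38, which is the value of Tlr1. It became -0.21 with the filter of over 1 CPM and -0.05 without a filter. Whether endosomal and other receptors differ was not tested.

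**Figure D3:**
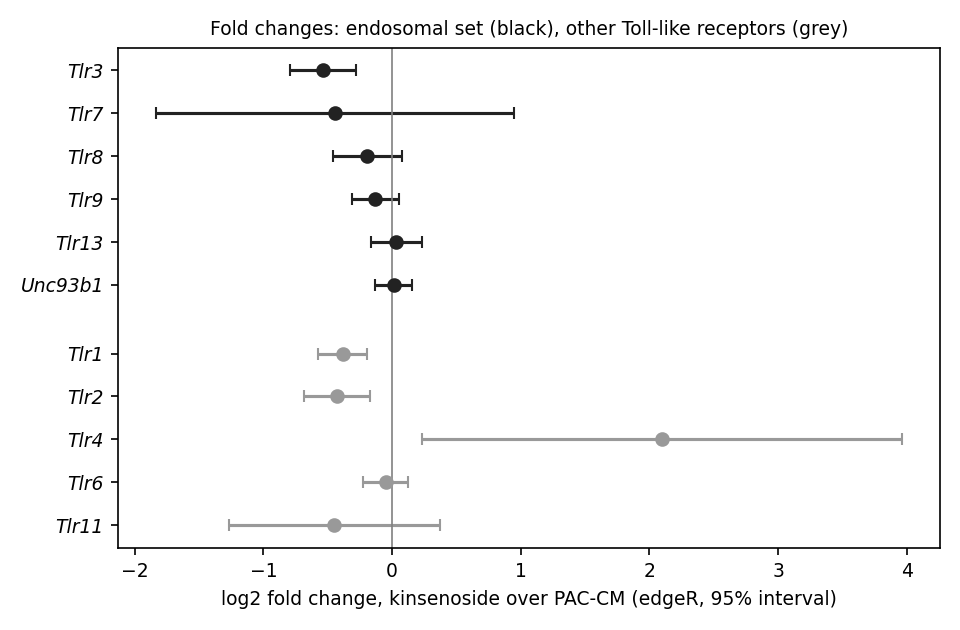
Log2 fold changes of kinsenoside over PAC-CM with 95% intervals from edgeR (n = 3 per group), for the endosomal receptors and Unc93b1 in black and the tested other Toll-like receptors in grey. The interval of Tlr3 lies from -0.79 to -0.28, those of Unc93b1 and Tlr13 are narrow and centred near 0, and that of Tlr7 runs from -1.84 to 0.94.

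Genes that fold, carry and cut the receptors had no calls in edgeR. For this and the lists below, 14.9% of all tested genes had an unadjusted p under 0.05 in edgeR. The edgeR test called 0.511% of all tested genes and DESeq2 3.52%, so 0 calls say little about lists of this size. Of 20 folding and trafficking genes 0 passed in edgeR, DESeq2 or limma-voom and 3 had an unadjusted p under 0.05, with a median log2 fold change of 0.06. Hsp90b1, the chaperone gp96 that folds most Toll-like receptors, averaged 603 ± 18.3 CPM with kinsenoside and 593 ± 20.8 CPM in PAC-CM. Sdcbp, the adaptor syntenin-1 that binds Unc93b1, averaged 1219 ± 44.2 CPM with kinsenoside and 1210 ± 81.3 CPM in PAC-CM (SD, n = 3 each). The 11 receptor proteases and related genes had 0 calls in edgeR and limma-voom, 4 at an unadjusted p under 0.05 and 2 higher in DESeq2, with a median of 0.14. None of the 11 estimates lay below 0, where 51.1% of all tested genes did, but 2 lay below 0 with library totals or upper quartile scaling. The most abundant of them, Ctsb (cathepsin B), averaged 20456 ± 544 CPM with kinsenoside and 18616 ± 512 CPM in PAC-CM, with an edgeR adjusted p of 0.221. Ctsd (cathepsin D) averaged 14168 ± 196 CPM with kinsenoside and 13221 ± 258 CPM in PAC-CM, with an edgeR adjusted p of 0.299.

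The 2 proteases called by DESeq2 were named after their values were seen. Lgmn, the asparagine endopeptidase that cuts Tlr9, had 1171, 1215 and 1367 CPM in kinsenoside replicates 1, 2 and 3, against 967, 954 and 999 CPM in PAC-CM replicates 1, 2 and 3. Its log2 fold change was 0.41 (SE 0.0736, edgeR adjusted p = 0.0670), and it passed in 3 of 15 alternatives, with an adjusted p of 0.000632 to 0.251 over them. Ctsk (cathepsin K) had 95.5, 97.8 and 97.2 CPM with kinsenoside, against 83.6, 67.1 and 70.4 CPM in PAC-CM, a log2 fold change of 0.44 (SE 0.0866, edgeR adjusted p = 0.0771; DESeq2 adjusted p = 0.00178, the only pass in 15 alternatives, which reached 0.256). Both genes were higher in each kinsenoside library than in any PAC-CM library, as were 4 of the 11 listed and 6.86% of all tested genes. Genes picked by a DESeq2 call would tend to separate in this way.

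Of 15 tested genes that process or bind nucleic acids, 0 passed in edgeR and limma-voom, 4 had an unadjusted p under 0.05 and DESeq2 called 1 higher, with a median of 0.15. The best expressed were Cd14, a co-receptor that helps endosomal receptors take up nucleic acids, at 2528 ± 242 CPM with kinsenoside and 2260 ± 158 CPM in PAC-CM, and Grn. Grn, whose product granulin carries CpG DNA to Tlr9, averaged 1655 ± 128 CPM with kinsenoside and 1772 ± 293 CPM in PAC-CM (SD, n = 3 each). Of 4 tested endolysosomal transporters 0 passed in edgeR, DESeq2 or limma-voom and 1 had an unadjusted p under 0.05, with a median of -0.09. Slc15a3, a lysosomal histidine and peptide transporter, averaged 1565 ± 187 CPM with kinsenoside and 1660 ± 36.0 CPM in PAC-CM. Slc29a1, a nucleoside transporter, averaged 33.1 ± 3.86 CPM with kinsenoside and 34.0 ± 1.69 CPM in PAC-CM.

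Downstream of the receptors, the edgeR calls among the listed genes lay among induced genes. Of 22 adaptors, kinases and transcription factors 0 passed in edgeR, DESeq2 or limma-voom and 5 had an unadjusted p under 0.05, with a median of 0.04. The groups did not overlap for 5 of them with kinsenoside lower and for 2 with it higher. Over all tested genes these shares were 15.7% lower and 6.86% higher, and no test was made of the difference. Irf7, the transcription factor behind interferon-alpha production after Tlr7 and Tlr9, averaged 1256 ± 122 CPM with kinsenoside and 1280 ± 63.6 CPM in PAC-CM. Ikbke, a kinase of interferon regulatory factors, averaged 144 ± 7.64 CPM with kinsenoside and 179 ± 15.7 CPM in PAC-CM (log2 fold change -0.26, edgeR adjusted p = 0.197). Of 11 negative regulators 0 passed in edgeR and limma-voom, 4 had an unadjusted p under 0.05 and DESeq2 called 1 lower (Socs1, named after its values were seen, log2 fold change -0.41, edgeR adjusted p = 0.129, DESeq2 adjusted p = 0.0318), with a median of 0.00. Trim30a, an inhibitor of signalling by Toll-like receptors, averaged 827 ± 36.6 CPM with kinsenoside and 821 ± 28.0 CPM in PAC-CM. Usp18, which removes ISG15 from proteins, averaged 456 ± 26.5 CPM with kinsenoside and 522 ± 13.3 CPM in PAC-CM (edgeR adjusted p = 0.321).

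Of 21 genes that these receptors can induce, 4 fell and none rose in edgeR, and 17 did not pass. DESeq2 called 7 lower and 2 higher, and limma-voom called 3 lower and 0 higher. The 2 that DESeq2 called higher, named after their values were seen, were the chemokine genes Ccl3 and Ccl4, with edgeR log2 fold changes of 0.56 and 0.55 (edgeR adjusted p = 0.276 and 0.242; DESeq2 adjusted p = 0.0414 and 0.0391). In edgeR 0.302% of tested genes were called lower, and in DESeq2 1.89% were, with 3.52% called in either direction. The 4 that fell in edgeR were the interferon-induced chemokine gene Cxcl10, the cytokine gene Il1b, the NF-kB inhibitor gene Nfkbia and the antiviral gene Rsad2, with log2 fold changes of -0.92, -0.60, -0.56 and -0.42 (edgeR adjusted p of 0.00482, 0.0152, 0.0263 and 0.0473). The call of Cxcl10 held in all 15 alternatives. Il1b lost its call when PAC-CM replicate 1, 2 or 3 or kinsenoside replicate 2 was left out (adjusted p up to 0.0824), and Nfkbia without these or kinsenoside replicate 3 (up to 0.120). Rsad2 kept it in 4 of 15 alternatives and lost it whichever library was left out (up to 0.171). The median of the list was -0.16. These genes also respond to other receptors, and they were listed with earlier results of these data known, so the count is not independent evidence about the endosomal pathway.

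**Figure D4:**
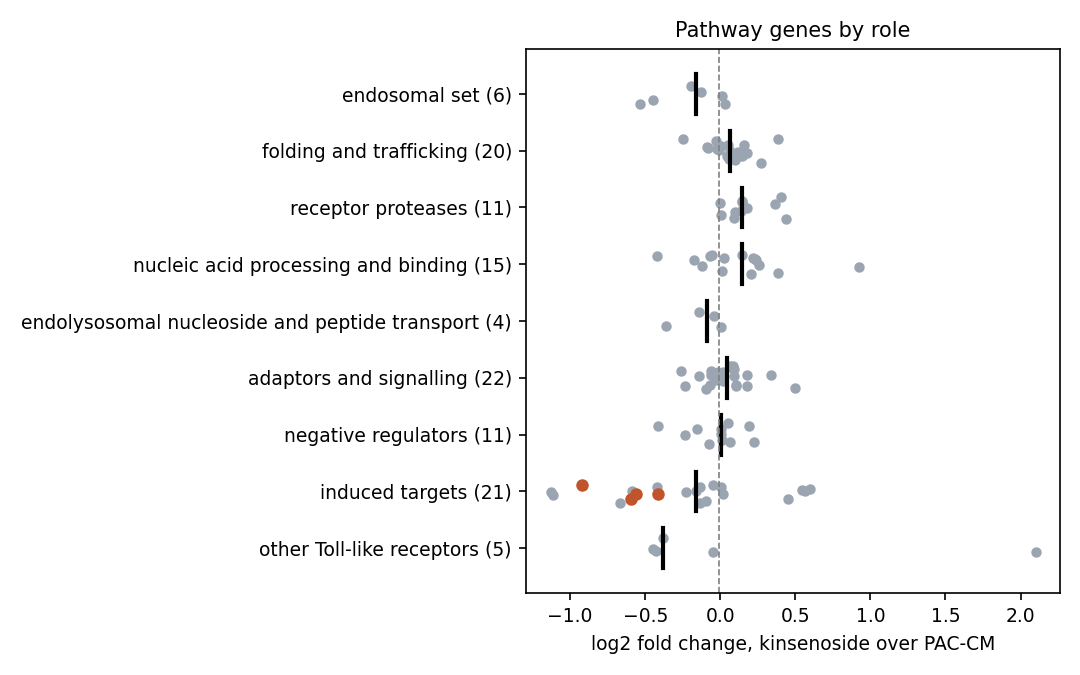
Log2 fold changes of kinsenoside over PAC-CM for tested genes of each role, with the number tested in brackets; orange points passed an adjusted p of 0.05 in edgeR, grey points did not, black bars are list medians and the dashed line is the median of all tested genes (-0.01). The 4 passing genes all lie among the induced targets, and the endosomal set has a median of -0.16.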

How the data were processed

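RNA was measured by sequencing in 6 libraries, 3 per group, read as pairs after mRNA enrichment, per the labels' protocols. The table the authors deposited holds whole-number counts per Ensembl gene. Per the submitters' processing notes, the tools were STAR, DESeq2 1.16.1, StringTie 1.3.1c, FastQC 0.11.2 and bcl2fastq 2.20, with GRCm38 and no role given; which tool counted, and whether strand was used, was not given in the sources used here. Positions and lengths came from GENCODE M21 (GRCm38), which holds 55154 of the 55335 identifiers.

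Counts were tested with edgeR 4.0.16 (R 4.3.3): filterByExpr, TMM scaling, robust quasi-likelihood fits on group alone, two-sided, Benjamini-Hochberg adjustment over 13901 genes and a threshold of 0.05. The SE was taken as |log2 fold change| / √F. CPM values use library totals; log2 CPM used a prior count of 2. Per-length levels use the union of exons. Alternatives used DESeq2 1.42.0, limma-voom 3.58.1, other scaling and filters, the replicate block and leaving out each library. The fit was tested on simulated data. At 41125059 to 47461702 counts per library, 3 counts equal 0.0632 to 0.0729 CPM, which covers counting error only.

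The members and gene lists were chosen with earlier results of these data known. Named genes were the members, called genes of each list (up to 4 per direction) or else the 2 of highest mean CPM, and the 2 genes most correlated with each member; others are said to be chosen later.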

Additional observations from a re-analysis of the deposited data

How the results depend on the processing

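No member passed in edgeR under any scaling, filter or left-out library; with DESeq2 the count of members called was 1, Tlr3 (log2 fold change -0.53, adjusted p = 0.00306). Leaving out 1 library moved Tlr3 between -0.60 and -0.41, Tlr7 between -0.95 and -0.23 and Tlr8 between -0.30 and -0.08, with the Tlr7 range set by kinsenoside replicate 3 and PAC-CM replicate 3. Tlr13 and Unc93b1 took either sign, between -0.04 and 0.09 and between -0.02 and 0.04, so no direction is given for them. Deviations from the group means correlated at 0.009, -0.101 and 0.135 between libraries of the same replicate number. Replicate 3 was closest to its own number, and replicates 1 and 2 were not. With so few libraries these values do not settle whether the replicates were paired. With the replicate block edgeR called 42 genes, none a member (Tlr3 -0.55, adjusted p = 0.113). Over all genes, calls numbered 71 in the main analysis, 490 with DESeq2, 39 with limma-voom, 36 with non-robust estimates and 13 to 98 with a library left out. With library totals 25 genes were higher and 63 lower, against 29 and 42.

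Per kilobase of the longest transcript, Unc93b1 averaged 226 CPM over all libraries, with the order of members unchanged in both groups. With Tlr7 left out of the sum, a choice made after seeing the data, the Tlr8 share was lower by a difference of -2.12 percentage points, against -0.47. List medians moved by more than the spread between replicates as follows. Library totals gave 0.0196 for folding and trafficking, 0.0996 for proteases, 0.000291 for adaptors, -0.0420 for negative regulators and -0.208 for induced targets, and upper quartile scaling gave 0.0263 for adaptors. The filter of over 1 CPM gave 0.0905 for nucleic acid genes, -0.132 for induced targets and -0.212 for other Toll-like receptors. No filter gave -0.0533 for other Toll-like receptors, and limma-voom gave 0.0255 for nucleic acid genes. With 1 library left out the medians ranged over 0.0490 to 0.0894 (folding and trafficking), -0.00152 to 0.166 (nucleic acid genes), 0.00350 to 0.0920 (adaptors), -0.0691 to 0.0381 (negative regulators), -0.257 to -0.172 (induced targets) and -0.394 to -0.101 (other Toll-like receptors).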

Other observations

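Tlr4, the lipopolysaccharide receptor of the cell surface, was another of the genes with counts in 2 levels. It had 4663, 873 and 4701 counts in kinsenoside replicates 1, 2 and 3, against 756, 837 and 1025 counts in PAC-CM replicates 1, 2 and 3. Kinsenoside replicate 2 thus lay with the PAC-CM libraries, and the log2 fold change of 2.10 had a 95% interval of 0.23 to 3.97 and an edgeR adjusted p of 0.297, ranging from 0.00149 to 0.549 over 15 alternatives. The libraries that were high for Tlr4 were not those that were high for Tlr7, since kinsenoside replicate 1 was high for Tlr4 and low for Tlr7.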
